A study of Homo sapiens with 22 samples.

Results

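SNAI1, SNAI2, ZEB1, ZEB2, TWIST1 and VIM were followed across all 8 groups of an RNA-seq experiment in H1299, an established line from a human lung carcinoma of the non-small cell type. The 6 genes were chosen by name, and all 6 were found by symbol and Ensembl identifier among the 37908 genes of the count table. Every culture carried a doxycycline (DOX)-inducible BRCA2 shRNA. Cultures kept without DOX are called BRCA2-proficient; those called BRCA2-deficient had 2 µg/mL DOX over 3 days. Because no culture received DOX without the shRNA, the drug and BRCA2 depletion cannot be told apart. In both backgrounds cells received control siRNA or siRNA against β-catenin (siβ-catenin, gene CTNNB1) and, in the GSK3i groups, 250 nM of the GSK3 inhibitor LY2090314 for 24 h. There were 3 libraries in each of 6 groups and 2, numbered 2 and 3, in each BRCA2-proficient group that had no GSK3i. Cells with control siRNA and no GSK3i are called untreated below.

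In the epithelial-to-mesenchymal transition (EMT), cells lose the junctions and keratins of an epithelium and take up a motile, fibroblast-like state. SNAI1 and SNAI2 (Snail and Slug) are zinc-finger repressors, ZEB1 and ZEB2 are zinc-finger homeobox repressors, and TWIST1 is a basic helix-loop-helix factor. All of these bind E-box sequences and repress epithelial genes such as CDH1 (E-cadherin). VIM encodes vimentin, the intermediate filament protein of mesenchymal cells and a widely used EMT marker. SNAI1 protein, like β-catenin, is phosphorylated by GSK3 and then degraded, so GSK3 inhibition is known to stabilise both proteins. The libraries measured transcripts and not proteins.

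Promoter sequences for ZEB1, ZEB2 and VIM were taken from RefSeq on GRCh38.p14, and no sequence is shown for SNAI1, SNAI2 and TWIST1. They are shown because the encoded factors bind E-boxes. ZEB1 has 7 start sites in that source, and its 2 windows shown are those that held an E-box of the kind CACCTG. Each line gives the 250 bases before a start site, 5′ to 3′ on the gene's strand, with the E-box CACCTG in capitals on either strand (its reverse complement reads CAGGTG).
ZEB1, chr10:31318966-31319215: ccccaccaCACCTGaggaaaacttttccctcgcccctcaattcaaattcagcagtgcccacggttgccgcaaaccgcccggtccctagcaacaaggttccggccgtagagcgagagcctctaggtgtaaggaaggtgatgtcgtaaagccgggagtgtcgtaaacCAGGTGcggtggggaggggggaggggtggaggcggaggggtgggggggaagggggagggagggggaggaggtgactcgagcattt
ZEB1, chr10:31318167-31318416: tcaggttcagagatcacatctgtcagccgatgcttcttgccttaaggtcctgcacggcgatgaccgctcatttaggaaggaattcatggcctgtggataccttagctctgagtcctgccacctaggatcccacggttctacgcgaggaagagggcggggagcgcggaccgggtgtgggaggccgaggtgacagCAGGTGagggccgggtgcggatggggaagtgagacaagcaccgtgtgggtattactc
ZEB2, chr2:144520120-144520369: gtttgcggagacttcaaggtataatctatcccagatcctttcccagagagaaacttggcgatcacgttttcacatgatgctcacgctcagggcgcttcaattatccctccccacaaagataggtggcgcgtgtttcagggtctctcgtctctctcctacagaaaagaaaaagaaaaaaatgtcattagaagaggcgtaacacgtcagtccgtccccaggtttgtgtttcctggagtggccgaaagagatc
VIM, chr10:17227991-17228240: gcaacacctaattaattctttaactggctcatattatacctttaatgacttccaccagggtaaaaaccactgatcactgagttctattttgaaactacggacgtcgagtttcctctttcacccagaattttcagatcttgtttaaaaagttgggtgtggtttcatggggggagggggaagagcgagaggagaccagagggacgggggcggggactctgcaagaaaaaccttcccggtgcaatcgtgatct
The first ZEB1 window held 2 copies of CACCTG and the second held 1. No copy was found in the ZEB2 and VIM windows, and no copy of CTTTGA, a core of the TCF/LEF sites through which β-catenin acts, was found in the 4 windows shown. In 300-base windows around all 35116 start sites of the same source, 20.6% held CACCTG and 12.9% held CTTTGA, counting both strands. These matches describe letters in these windows and not bound sites.

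On GRCh37 the genes lie at chr20:48599517-48605423 (SNAI1, ENSG00000124216, plus strand), chr8:49830157-49834299 (SNAI2, ENSG00000019549, minus strand), chr10:31607424-31818742 (ZEB1, ENSG00000148516, plus strand), chr2:145121931-145278624 (ZEB2, ENSG00000169554, minus strand), chr7:19060614-19157259 (TWIST1, ENSG00000122691, minus strand) and chr10:17270240-17279592 (VIM, ENSG00000026025, plus strand). The annotation calls all 6 protein coding. The values are gene-level counts, so isoforms were not separated.

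The smallest library held 18.9 M counts (M, mega), the median 23.2 M and the largest 29.3 M. Normalised counts below were scaled by the DESeq2 size factor of each library. The targeted genes followed the labels in every library: BRCA2 lay between 513.6 and 1111 normalised counts in the BRCA2-proficient libraries and between 71.4 and 225.3 in the BRCA2-deficient ones, and CTNNB1 lay between 5206 and 8669 with control siRNA and between 976.8 and 2217 with siβ-catenin. One pair of libraries went against its GSK3i label. A score was taken over 1024 genes raised and 1496 genes lowered by GSK3i in the BRCA2-deficient libraries, both with and without siβ-catenin, as the mean log2 level of the raised minus that of the lowered genes. Among BRCA2-proficient libraries it was 1.43 and 1.41 in untreated cells and 3.54, 3.53 and 3.56 with GSK3i. The library labelled siβ-catenin replicate 2, without GSK3i, scored 3.16 against 2.02 in replicate 3. Replicate 2 of the group labelled GSK3i with siβ-catenin scored 1.36 against 3.17 and 3.21 in replicates 1 and 3. Both libraries were kept under their labels, and values without them are given beside the results that rest on them.

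**Figure D1:**
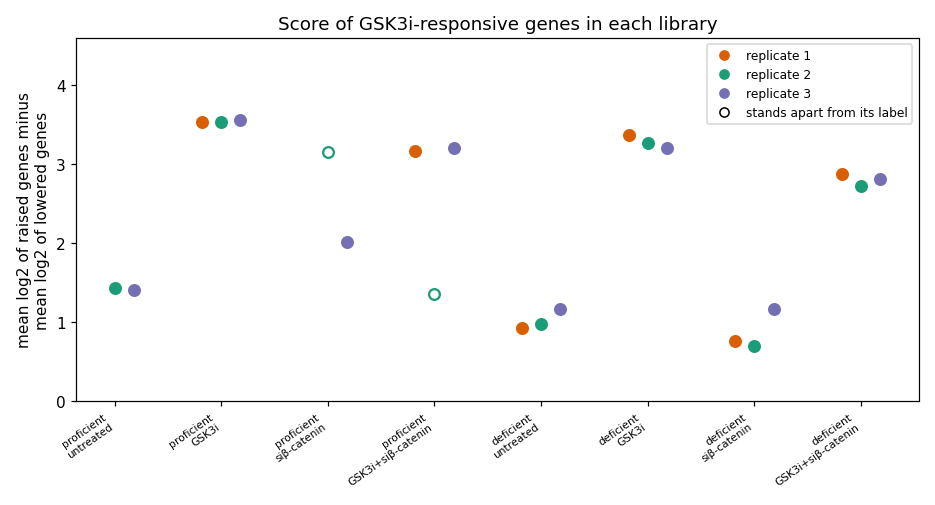
Score of GSK3i-responsive genes (y axis, log2 units) in each of the 22 libraries, by group (x axis) and replicate number (colour). The open points are the BRCA2-proficient libraries labelled siβ-catenin replicate 2 (3.16) and GSK3i with siβ-catenin replicate 2 (1.36), which lie with libraries of the other GSK3i label; the BRCA2-deficient libraries chose the genes, so their separation is built in.

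Per length, vimentin was by far the most abundant of the 6. RPKM here is reads per kilobase of the canonical transcript per M counts, as computed from the table. VIM ranged from 266 to 727 RPKM over the 22 libraries, with a median of 460. The median was 7.71 for ZEB1, 5.71 for TWIST1, 3.54 for ZEB2, 1.69 for SNAI1 and 1.17 for SNAI2. SNAI1 and SNAI2 rested on 25 to 120 and 24 to 124 counts a library, whereas VIM had at least 15996 counts in each library. Their closest paralogs were also low, with medians of 0.381 RPKM for SNAI3 and 3.61 for TWIST2.

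The line carried a mixed set of epithelial and mesenchymal transcripts. CDH1 had a median of 0.0126 RPKM and at most 7 counts in any library, and 10 of 25 listed epithelial genes averaged under 10 normalised counts, including the epithelial factors GRHL2, OVOL1, OVOL2 and ESRP2. The keratins KRT8 and KRT18 were nevertheless abundant (medians of 91.5 and 232 RPKM). Of 20 listed mesenchymal genes, 15 averaged at least 10 normalised counts. COL3A1, COL5A1, THY1 and FAP fell below that, and CDH11 was not in the table used here. Medians of those 15 ran from 0.777 RPKM for TAGLN to 198 RPKM for AXL, a receptor kinase of mesenchymal-like cells, with CDH2 (N-cadherin) at 23.4 RPKM. Of 8 lung epithelial markers, NKX2-1 and TP63 averaged at least 10 normalised counts and 4 others fell below that, with SCGB1A1 and KRT5 not in the table used here. None of the 3 immune and endothelial markers in the table (PTPRC, CD68, CDH5) averaged 10.

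**Figure D2:**
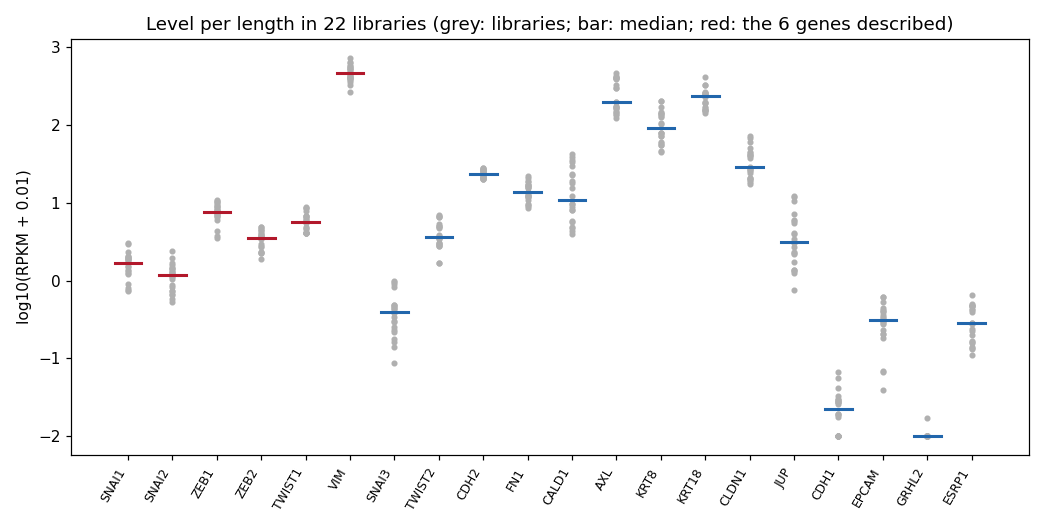
Level per length of the 6 genes (red median bars) and of paralogs, mesenchymal and epithelial genes (blue median bars) as log10(RPKM + 0.01); grey points are the 22 libraries. VIM (median 460 RPKM) lies above KRT18 (232) and CDH1 (0.0126) lies near the bottom of the axis.

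A change was called where DESeq2 gave an adjusted p below 0.05 and a log2 fold change larger than 0.5 in either direction. All 6 genes passed the filter on low counts in every comparison. Comparisons below share libraries with each other and are not independent. Groups of 2 or 3 libraries can also lie apart without a real change. The share of all genes whose groups did not overlap was not counted in any comparison. SNAI2 was called higher with GSK3i in 3 of 4 comparisons and SNAI1 in 1, TWIST1 was called lower with it in 2 and ZEB2 in 1, VIM was called lower with siβ-catenin in 1 of 4 and ZEB1 lower in BRCA2-deficient cells in 1 of 4. Each of these 9 calls was lost when at least 1 particular library was left out.

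**Figure D3:**
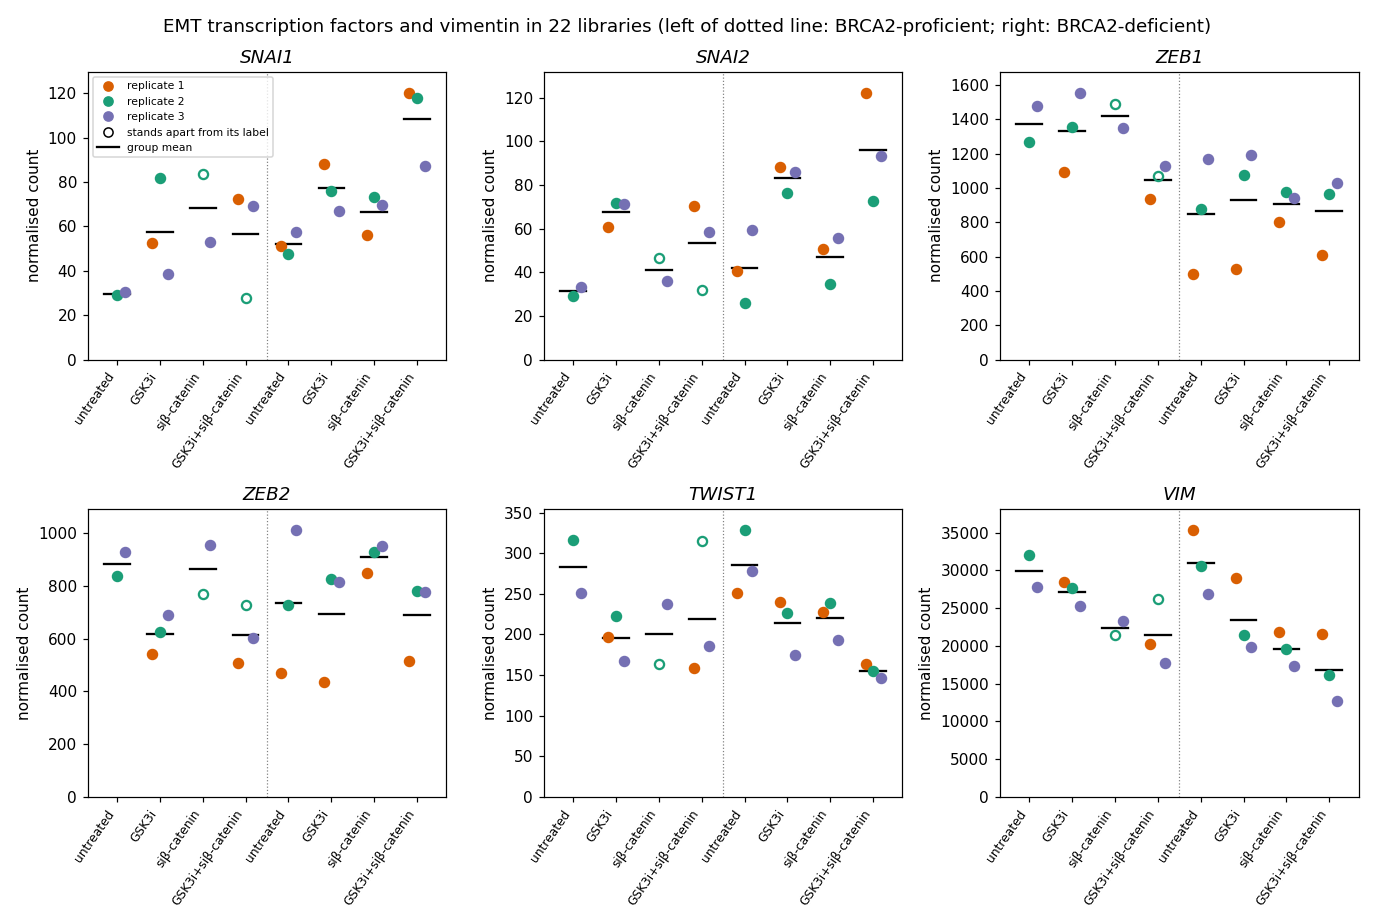
Normalised counts (y axis, from 0) of each gene in every library, by group (x axis); colour gives the replicate number, black bars are group means and open points are the 2 libraries that went against their GSK3i label. Within each BRCA2-deficient group ZEB1 and ZEB2 were lowest in replicate 1, and VIM stepped down from untreated cells to the siβ-catenin groups.

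SNAI2, the gene for Slug, rose about 2-fold with GSK3i in control siRNA cells. In BRCA2-proficient cells it measured 29.02 and 33.31 normalised counts untreated and 60.56, 71.68 and 71.04 with GSK3i. The groups did not overlap, and the log2 fold change was 1.10 ± 0.38 (SE, n = 2 and 3, DESeq2 adjusted p = 0.0135). In this comparison 3 of the 6 genes were called, against 26.1% of all 16771 genes tested. The call was lost without untreated replicate 2 (adjusted p = 0.163), untreated replicate 3 (0.115), GSK3i replicate 2 (0.0948) or GSK3i replicate 3 (0.0598), with the change staying between 1.02 and 1.21.

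In BRCA2-deficient cells SNAI2 measured 40.46, 25.99 and 59.35 normalised counts untreated and 88.21, 76.05 and 85.83 with GSK3i. In replicates 1 and 2 with GSK3i the read counts of SNAI1 and SNAI2 happened to be equal (77 and 86), so their normalised counts coincide there. Every treated library was above every untreated one, with a change of 0.98 ± 0.35 (SE, n = 3 and 3, DESeq2 adjusted p = 0.0216). It was the only one of the 6 genes called there, against 25.4% of all genes. The call held without untreated replicate 3 alone, and the other 5 fits that left out a library gave changes from 0.73 to 1.06 and adjusted p from 0.0703 to 0.162. The response did not differ detectably between the backgrounds (difference -0.13 ± 0.46, 95% interval -1.03 to 0.76, adjusted p = 1).

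SNAI2 also rose with GSK3i after siβ-catenin in BRCA2-deficient cells. In BRCA2-deficient cells with siβ-catenin it went from 50.42, 34.55 and 55.70 normalised counts to 122.00, 72.55 and 93.39 with GSK3i, without overlap. The change was 1.04 ± 0.31 (SE, n = 3 and 3, DESeq2 adjusted p = 0.0056), and 3 of the 6 genes were called against 20.1% of all genes. It was lost without siβ-catenin replicate 2 (adjusted p = 0.069) or GSK3i with siβ-catenin replicate 1 (0.0533). The difference from the response in control siRNA cells was 0.04 ± 0.45 (95% interval -0.83 to 0.91, adjusted p = 1), and 0 of the 6 genes differed in this way, with 0.486% of all genes called. AXIN2, a direct target of β-catenin, showed a large difference in the same test (-3.65 ± 0.34, adjusted p = 2.51e-22), and its rise with GSK3i fell from 4.61 with control siRNA to 0.98 with siβ-catenin on the log2 scale.

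SNAI1, the gene for Snail, was higher with GSK3i in the same 3 comparisons but passed the test in 1 of them. Its lowest group was untreated BRCA2-proficient cells, at 29.02 and 30.46 normalised counts, and its highest was BRCA2-deficient cells with GSK3i and siβ-catenin, at 120.00, 117.90 and 87.37. These groups lay far apart and differ in 3 factors. In order of their means the others ran from BRCA2-deficient with GSK3i (77.10) over BRCA2-proficient siβ-catenin (68.36), BRCA2-deficient siβ-catenin (66.48), BRCA2-proficient GSK3i (57.56) and BRCA2-proficient GSK3i with siβ-catenin (56.53) to BRCA2-deficient untreated (52.04). Neighbours in that order overlapped, except that untreated BRCA2-proficient cells lay below the next group. The means of 68.36 and 56.53 each include a library that went against its GSK3i label, so the places of these groups rest on them. In the BRCA2-proficient group labelled GSK3i with siβ-catenin that library held 27.9, the lowest SNAI1 value of all 22 libraries.

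With GSK3i in BRCA2-proficient cells SNAI1 measured 52.41, 81.92 and 38.34 normalised counts, all above the untreated libraries. The change of 0.94 ± 0.44 did not pass (SE, n = 2 and 3, DESeq2 adjusted p = 0.0838), and without GSK3i replicate 3 it was 1.18 and did (adjusted p = 0.0466). In BRCA2-deficient cells the values were 51.17, 47.66 and 57.31 untreated and 88.21, 76.05 and 67.05 with GSK3i, again without overlap, with a change of 0.56 ± 0.29 (adjusted p = 0.137). The call came in BRCA2-deficient cells with siβ-catenin, where SNAI1 went from 56.31, 73.31 and 69.82 to the 3 highest-group values above. That change was 0.71 ± 0.26 (SE, n = 3 and 3, DESeq2 adjusted p = 0.0319). It was lost without any of siβ-catenin replicates 1, 2 and 3 (adjusted p = 0.211, 0.0732 and 0.0715) or GSK3i with siβ-catenin replicates 1 and 2 (0.104 and 0.135), at changes from 0.59 to 0.78, and in one model over all groups (0.0769).

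TWIST1 moved the other way. It measured 315.8 and 251.3 normalised counts in untreated BRCA2-proficient cells and 196.8, 223.0 and 166.9 with GSK3i, without overlap. The change was -0.55 ± 0.22 (SE, n = 2 and 3, DESeq2 adjusted p = 0.0401), and it was lost without any single library: adjusted p was 0.455 without untreated replicate 2, 0.0976 without untreated replicate 3 and 0.0953, 0.0666 and 0.158 without GSK3i replicates 1, 2 and 3. One model over all groups (0.108) and no filter on low counts (0.052) lost it too. In BRCA2-deficient cells it measured 251.1, 328.2 and 278.3 untreated and 239.4, 226.4 and 175.2 with GSK3i, a change of -0.42 ± 0.22 (adjusted p = 0.131) between groups that did not overlap.

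In BRCA2-deficient cells with siβ-catenin TWIST1 stood at 227.7, 238.5 and 193.8 normalised counts without GSK3i and at 163.1, 155.2 and 146.9 with it. This was the lowest of the 8 groups, below every library of the next one. The change was -0.50 ± 0.19 (SE, n = 3 and 3, DESeq2 adjusted p = 0.0437), just past the size limit. It was lost without siβ-catenin replicate 1 or 2 (adjusted p = 0.203 and 0.219) or GSK3i with siβ-catenin replicate 2 or 3 (0.141 and 0.178), and edgeR (0.0596) and one model over all groups (0.0961) did not call it. The paralog TWIST2 was called lower with GSK3i in BRCA2-deficient cells. Its log2 changes there were -0.83 ± 0.28 with control siRNA (DESeq2 adjusted p = 0.0129) and -0.71 ± 0.25 after siβ-catenin (0.0205). With GSK3i in BRCA2-proficient control siRNA cells, where TWIST1 was called, TWIST2 was not.

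ZEB2 fell with GSK3i in BRCA2-proficient cells, from 838.2 and 928.9 normalised counts to 540.4, 625.8 and 687.8, without overlap. The change was -0.53 ± 0.16 (SE, n = 2 and 3, DESeq2 adjusted p = 0.00501). It was lost without untreated replicate 2 (adjusted p = 0.0526) or 3 (0.177), and without GSK3i replicate 1 the change of -0.44 (adjusted p = 0.0276) fell short of the size limit; one model over all groups lost it too (0.174). In BRCA2-deficient cells ZEB2 measured 468.9, 727.9 and 1010 untreated and 435.3, 825.9 and 814.5 with GSK3i. These groups overlapped widely, and the change was -0.09 ± 0.32 (adjusted p = 0.875). After siβ-catenin in BRCA2-deficient cells it went from 847.9, 929.5 and 950.1 to 513.2, 779.9 and 775.0, without overlap but short of the test (-0.40 ± 0.19, adjusted p = 0.104). The difference between the backgrounds in the GSK3i response was 0.43 ± 0.43 (95% interval -0.41 to 1.27, adjusted p = 1), and 0 of the 6 genes differed in that test, with 0.0345% of all genes called.

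After siβ-catenin in BRCA2-proficient cells the GSK3i comparison rests on both libraries that went against their labels. As labelled, 0 of the 6 genes were called, with 0.0529% of all genes (9 genes), and edgeR called 0 genes. An unadjusted DESeq2 p below 0.05 was found for 263 of 17010 genes tested, fewer than that threshold would pass without any change. Without those 2 libraries the comparison set 1 library against 2, with the lone library assumed to vary like the others, and ZEB2 was called lower (-0.78 ± 0.22, adjusted p = 0.00872; as labelled -0.48 ± 0.24, adjusted p = 1). SNAI2 measured 46.28 and 35.98 normalised counts without GSK3i and 70.50, 31.76 and 58.25 with it, which overlapped (0.39 ± 0.49, adjusted p = 1), and its change was 0.85 ± 0.669 without both libraries. SNAI1 turned from -0.26 to 0.43 and TWIST1 from 0.14 to -0.46, and neither was called in either fit. ZEB1 (-0.43 and -0.38) and VIM (-0.05 and -0.29) were not called with or without them. The difference of the GSK3i response between siβ-catenin and control siRNA in this background called 0 of the 6 genes, with 7.63% of all genes, and 0 of the 6 without both libraries.

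**Figure D4:**
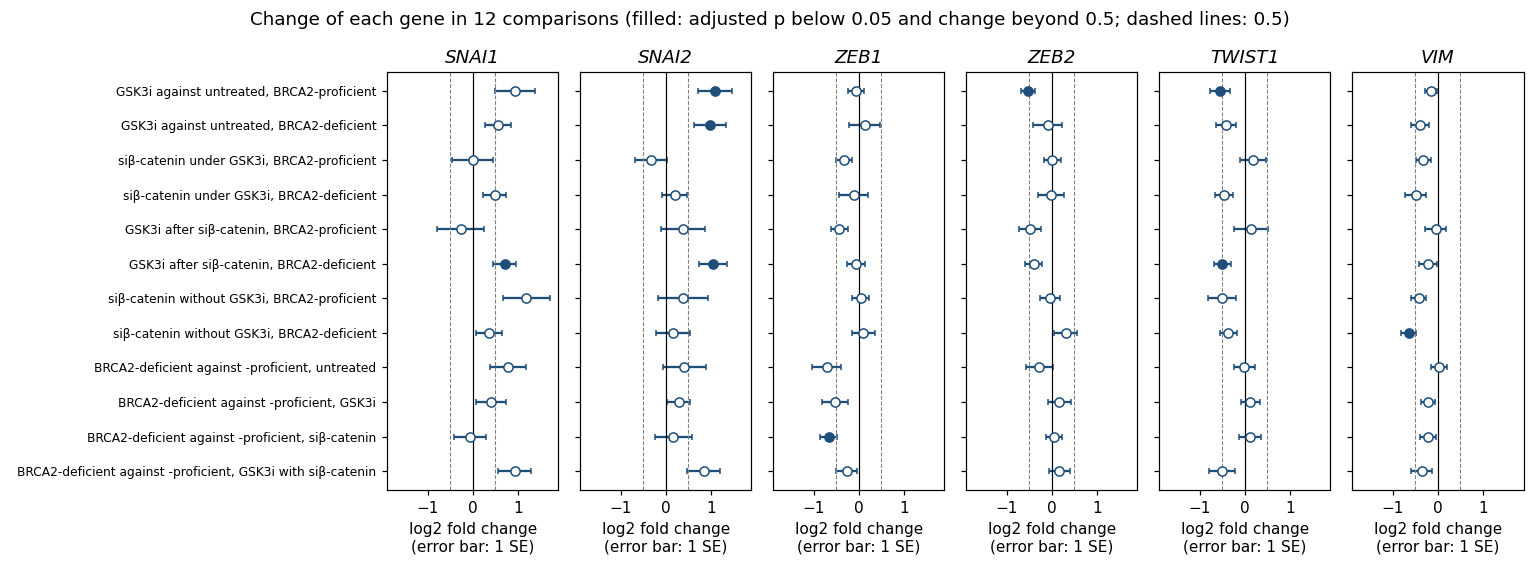
Log2 fold change (x axis) of each gene in the 12 comparisons of 2 groups, with error bars of 1 SE; filled points passed both criteria (adjusted p below 0.05, change beyond 0.5, dashed lines). SNAI2 is filled in 3 comparisons of GSK3i, TWIST1 in 2, SNAI1 and ZEB2 in 1 each, VIM in 1 comparison of siβ-catenin and ZEB1 in 1 of BRCA2 status.

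VIM fell with siβ-catenin in BRCA2-deficient cells without GSK3i. It measured 35307, 30623 and 26847 normalised counts with control siRNA and 21879, 19617 and 17326 with siβ-catenin. The groups did not overlap, and the change of -0.65 ± 0.16 meant a level 0.636 times that of control siRNA (SE, n = 3 and 3, DESeq2 adjusted p = 0.00521). It was the only one of the 6 genes called, against 2.03% of all genes, but edgeR gave the same change with an adjusted p of 0.122, and the call was lost without control siRNA replicate 2 (0.099) or siβ-catenin replicate 3 (0.0575).

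The other comparisons of siβ-catenin gave VIM changes of the same sign. In BRCA2-proficient cells without GSK3i it measured 32065 and 27764 normalised counts with control siRNA and 21439 and 23367 with siβ-catenin, the first of these in the library that went against its label. The change was -0.43 ± 0.17 (SE, n = 2 and 2, DESeq2 adjusted p = 0.164), and -0.35 (adjusted p = 0.2) without that library; 0 of the 6 genes were called, with 2.97% of all genes. TWIST1 (-0.51 ± 0.31, adjusted p = 0.425) was lower and SNAI1 (1.19 ± 0.52, adjusted p = 0.201) and SNAI2 (0.39 ± 0.55, adjusted p = 0.798) were higher in value without overlap, and none passed. Without that library these changes were -0.25, 0.84 and 0.21. With 2 libraries on each side, groups can easily separate without a real change, and the share of all genes that did so was not counted.

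Under GSK3i in BRCA2-deficient cells VIM measured 29034, 21476 and 19886 normalised counts with control siRNA and 21550, 16118 and 12636 with siβ-catenin. The groups overlapped, but within each replicate number the siβ-catenin library was lower (3 of 3). The change was -0.49 ± 0.23 (SE, n = 3 and 3, DESeq2 adjusted p = 0.235), 0 of the 6 genes were called and 5.52% of all genes were. With the replicate number as a block, where same-numbered libraries deviated together, the change was -0.50 ± 0.0795 and passed (adjusted p = 9.94e-09), and without GSK3i with siβ-catenin replicate 1 it was -0.70 (0.0293). TWIST1 was lower without overlap (-0.47 ± 0.20, adjusted p = 0.173).

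Under GSK3i in BRCA2-proficient cells VIM measured 28502, 27661 and 25278 normalised counts with control siRNA and 20307, 26158 and 17792 with siβ-catenin. The middle value belongs to the library that went against its label and was the only one to overlap. The change was -0.32 ± 0.17 (SE, n = 3 and 3, DESeq2 adjusted p = 0.32), and without that library it was -0.49 ± 0.12 (adjusted p = 0.00164), just short of the size limit; 0 of the 6 genes were called, with 5.1% of all genes. The siβ-catenin response under GSK3i differed between the backgrounds for 0 of the 6 genes, with 0.0057% of all genes called (1 gene), and for VIM the difference was -0.15 ± 0.30 (95% interval -0.74 to 0.44, adjusted p = 1), and 0.02 ± 0.295 without the library that went against its label. Among the siβ-catenin comparisons, the 5 transcription factors were called in none.

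GSK3i itself left VIM short of the test. The change was -0.15 ± 0.13 in BRCA2-proficient cells (adjusted p = 0.371). It was -0.40 ± 0.20 in the BRCA2-deficient background (adjusted p = 0.124), and leaving out GSK3i replicate 1 made it -0.58 and called (adjusted p = 0.00467). Its antisense transcript VIM-AS1 overlaps the start of VIM on the other strand and ran from 99.2 to 258 normalised counts. ZEB1-AS1 (167 to 376) overlaps the start of ZEB1, and ZEB2-AS1 (0 to 4.2) that of ZEB2. The libraries were strand specific, but the strand setting of the counting is not given in the sources used here, so shared reads cannot be separated.

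ZEB1 was called lower in BRCA2-deficient cells in 1 comparison of 4. With siβ-catenin it measured 1487 and 1352 normalised counts in BRCA2-proficient libraries and 803.4, 975.8 and 939.9 in BRCA2-deficient ones, without overlap. The change was -0.67 ± 0.18 (SE, n = 2 and 3, DESeq2 adjusted p = 0.00112). It was the only one of the 6 genes called, against 27.4% of all genes, a share that rests in part on the library labelled siβ-catenin replicate 2 (1487). Without that library the change was -0.61 and still called (adjusted p = 0.0323), but without BRCA2-deficient siβ-catenin replicate 1 it was -0.59 and not (0.0615), nor in one model over all groups (-0.65, 0.103). ZEB1-AS1 was lower in the same comparison (-0.66 ± 0.24, adjusted p = 0.0237), a call lost without the library labelled siβ-catenin replicate 2 (-0.39 ± 0.294, adjusted p = 0.378).

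Untreated, ZEB1 measured 1270 and 1475 normalised counts in BRCA2-proficient cells and 501.0, 876.2 and 1169 in BRCA2-deficient cells. The groups did not overlap, but the BRCA2-deficient libraries spread more than 2-fold and the change of -0.71 ± 0.32 did not pass (SE, n = 2 and 3, DESeq2 adjusted p = 0.156). Without BRCA2-deficient replicate 3 it was -1.03 and called (adjusted p = 0.000844). None (0) of the 6 genes was called, with 6.91% of all genes, and SNAI1 was higher without overlap (0.78 ± 0.40, adjusted p = 0.238).

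With GSK3i ZEB1 measured 1095, 1354 and 1552 normalised counts in BRCA2-proficient cells and 524.7, 1076 and 1192 in BRCA2-deficient cells. These ranges overlapped, and in each of the 3 replicate numbers the BRCA2-deficient library was lower. The change was -0.52 ± 0.29 (SE, n = 3 and 3, DESeq2 adjusted p = 0.322), with 0 of the 6 genes and 6.81% of all genes called. With the replicate number as a block it was -0.59 ± 0.152 and called (adjusted p = 0.00151).

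With GSK3i and siβ-catenin together ZEB1 measured 933.6, 1067 and 1130 normalised counts in BRCA2-proficient cells and 606.2, 963.3 and 1027 in BRCA2-deficient cells, which overlapped (-0.27 ± 0.23, adjusted p = 0.552; -0.27 ± 0.239 without the library that went against its label). Again 0 of the 6 genes were called, with 7.74% of all genes. SNAI1 (0.93 ± 0.37, adjusted p = 0.0983) and SNAI2 (0.84 ± 0.37, adjusted p = 0.145) were higher in BRCA2-deficient libraries without overlap. Leaving out BRCA2-proficient replicate 2 of that treatment, which went against its label and held the lowest BRCA2-proficient value of both genes (27.91 and 31.76), these changes were 0.60 (adjusted p = 0.208) and 0.56 (0.314). In a single model over all 8 groups both passed (adjusted p = 0.0239 and 0.042).

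ZEB1 and ZEB2 shared low values in replicate 1 of BRCA2-deficient cells. ZEB1 was at 501.0, 524.7 and 606.2 normalised counts and ZEB2 at 468.9, 435.3 and 513.2 in replicate 1 of the untreated, GSK3i and GSK3i with siβ-catenin groups, below replicates 2 and 3 of their groups in each case. In the siβ-catenin group replicate 1 was also lowest, at 803.4 and 847.9, but close to the others. In BRCA2-proficient cells replicate 1 with GSK3i and with GSK3i and siβ-catenin held the lowest ZEB1 (1095 and 933.6) and ZEB2 (540.4 and 507.6) as well. VIM went the other way, with its highest value in replicate 1 of all 4 BRCA2-deficient groups. Untreated and siβ-catenin BRCA2-proficient cells had no replicate 1 in the data analysed here, so comparisons with those groups set replicate 1 on one side alone.

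Over the 22 libraries SNAI1 and SNAI2 varied together (Pearson r = 0.72 of log2 normalised counts), as did TWIST1 with VIM (0.71) and ZEB1 with ZEB2 (0.59), while SNAI2 ran against TWIST1 (-0.73) and SNAI1 against TWIST1 (-0.65). These r describe libraries that share treatments and replicate numbers and carry no test. Among 11898 genes with a mean of at least 100 normalised counts, the 3 most like SNAI1 were DUSP3, a phosphatase (r = 0.91 over 22 libraries and 0.97 over 8 group means), MFSD1 (0.89 and 0.95) and PLEKHM1 (0.89 and 0.95). For SNAI2 they were KIF1C, a kinesin motor (0.91 and 0.96), C15orf39 (0.91 and 0.95) and PLD6 (0.90 and 0.98). For ZEB1 they included KIF5B, a kinesin heavy chain (0.97 and 0.97), and RPS6KA3 (0.96 and 0.97). For ZEB2 they were TRIO (0.95 and 0.93), ZNF644 (0.93 and 0.89) and ZNF827 (0.93 and 0.87). TWIST1 was most like FUZ (0.92 and 0.94), GLYCTK (0.91 and 0.97) and HACL1 (0.90 and 0.96), and VIM most like PIH1D1 (0.96 and 0.97), FIBP (0.95 and 0.96) and ZCRB1 (0.95 and 0.97).

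Listed epithelial and mesenchymal genes were called mainly downward in 3 of the 4 GSK3i comparisons. Of 25 listed epithelial genes 15 were tested in BRCA2-deficient control siRNA cells, and 0 rose and 6 fell (40% against 25.4% of all genes), with a median log2 change of -0.67 against 0.02 over all genes. Among them were JUP, the junction protein plakoglobin (-1.37 ± 0.18, adjusted p = 6.96e-12), and KRT8 (-1.31 ± 0.24, 1.3e-06). Of 15 mesenchymal genes tested 0 rose and 6 fell, with a median of -0.29, led by LOX, which crosslinks collagen (-2.34 ± 0.24, adjusted p = 2.62e-20), and CALD1, the actin regulator caldesmon (-2.22 ± 0.21, 1.47e-23). After siβ-catenin in the same background 0 of 15 epithelial genes rose and 8 fell (median -0.53), and 1 of 15 mesenchymal genes rose and 8 fell (median -0.56), against 20.1% of all genes called, again with JUP (-1.69 ± 0.17), LOX (-2.10 ± 0.19) and CALD1 (-1.88 ± 0.16) among the largest decreases. In BRCA2-proficient control siRNA cells the counts were 0 up and 6 down of 14 epithelial genes (median -0.58) and 1 up and 5 down of 15 mesenchymal genes (median -0.61), against 26.1% of all genes. After siβ-catenin in BRCA2-proficient cells 0 of 15 epithelial and 0 of 15 mesenchymal genes were called (medians 0.10 and 0.00), with 0.0529% of all genes. Without both libraries that went against their label, 1 library with siβ-catenin alone was left, and the 3 left let more genes through the filter. The median was then -0.45 over 23 epithelial genes and -0.05 over 17 mesenchymal genes.

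With siβ-catenin under GSK3i, listed genes of both kinds were called mainly upward, against a background of 5.52% (BRCA2-deficient) and 5.1% (BRCA2-proficient) over all genes. In BRCA2-deficient cells 3 of 15 epithelial genes rose and 0 fell, led by the polarity gene LLGL2 (1.06 ± 0.17, adjusted p = 1.15e-07), and 4 of 15 mesenchymal genes rose and 1 fell, led by COL1A1, a collagen chain (1.79 ± 0.24, adjusted p = 7.94e-11), with TGFBI, a matrix protein, falling (-0.99 ± 0.19, 3.4e-05). In BRCA2-proficient cells 3 of 14 epithelial genes rose and 0 fell, and 3 of 15 mesenchymal genes rose and 2 fell. Without the library that went against its label these counts were 2 and 0 of 14, and 4 and 2 of 15. VIM was below its control siRNA level in value in both.

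Of 12 other EMT transcription factors, 10 were tested with GSK3i in BRCA2-deficient cells. TCF3, which encodes the E-box factors E12 and E47, rose by 0.90 ± 0.13 (adjusted p = 4.37e-11) and PRRX1 by 0.52 ± 0.19 (0.0243), while TWIST2 fell; the median of the list was -0.16, and 30% of it was called against 25.4% of all genes. In BRCA2-proficient cells 3 of 10 rose and 1 fell (40% against 26.1% of all genes), with PRRX1 at 0.70 ± 0.15, TCF3 at 0.64 ± 0.13 and TCF4, another E-box factor and not the TCF7L2 partner of β-catenin, at -0.64 ± 0.16. After siβ-catenin in BRCA2-deficient cells 0 of 10 rose and 4 fell (against 20.1% of all genes), and TCF3 was not among those called. Its GSK3i response differed between siβ-catenin and control siRNA by -0.70 ± 0.14 (DESeq2 adjusted p = 0.000479; edgeR 0.154). SOX9 was lower with siβ-catenin under GSK3i in both backgrounds (-0.51 ± 0.14 in BRCA2-proficient cells, -0.58 ± 0.13 without the library that went against its label, and -0.68 ± 0.14 in BRCA2-deficient cells).

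Other intermediate filament genes included neurofilament chains that rose with GSK3i in control siRNA cells. In BRCA2-deficient cells 4 of 8 tested rose and 1 fell (62.5% against 25.4% of all genes), with NEFM at 1.24 ± 0.18 (adjusted p = 1.54e-10), NEFH at 0.83 ± 0.16 (3.3e-06) and SYNM, a filament linker, at -1.02 ± 0.23 (7.9e-05). In BRCA2-proficient cells 3 of 8 rose and 1 fell (50% against 26.1% of all genes), with NEFM at 1.29 ± 0.20. After siβ-catenin in BRCA2-deficient cells NEFM rose (0.99 ± 0.18) and SYNM fell (-0.97 ± 0.24), and no other gene of the 8 was called (25% against 20.1% of all genes). After siβ-catenin in BRCA2-proficient cells 0 of 8 were called, with 0.0529% of all genes. Of the 3 antisense and host transcripts tested with GSK3i in control siRNA cells, SNAI3-AS1 alone was called, lower in both backgrounds (-1.94 ± 0.36 and -1.75 ± 0.33 in BRCA2-deficient and -proficient cells). For BRCA2 status with siβ-catenin all 3 were called, against 27.4% of all genes. In BRCA2-deficient cells SNAI3-AS1 was higher there and ZEB1-AS1 and VIM-AS1 lower. Without the library labelled siβ-catenin replicate 2, 0 of the 3 were called.

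The 24 listed kinases, ubiquitin ligases, deubiquitinases and corepressors act on SNAI1 protein or with it. With GSK3i in BRCA2-deficient cells 3 of 23 tested rose and 4 fell (30.4% against 25.4% of all genes, median 0.14). The decreases were led by LOXL2, which stabilises SNAI1 (-0.93 ± 0.14, adjusted p = 1.37e-09), and CTDSP1, a phosphatase that removes its GSK3 phosphates (-0.86 ± 0.19, 0.000101). The increases included FBXO45, a ligase subunit that targets EMT factors (0.61 ± 0.19, 0.00694), GSK3A, one of the drug's own targets (0.58 ± 0.20, 0.0158). In BRCA2-proficient cells 1 of 23 rose and 4 fell (21.7% against 26.1% of all genes), again led by LOXL2 (-0.91 ± 0.12), and after siβ-catenin in BRCA2-deficient cells 3 rose and 4 fell (30.4% against 20.1%). With siβ-catenin under GSK3i 0 of 23 were called in either background, against 5.1% and 5.52% of all genes.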

How the data were processed

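Poly(A)-enriched, strand-specific RNA-seq libraries of H1299 cells were counted per gene. The authors deposited raw counts: reads were aligned to GRCh37 with HISAT2 (2.0.4 in the submitters' processing notes), duplicates removed with Picard (1.9.2) and uniquely mapping reads summarised over Ensembl genes with featureCounts (1.5.0). The Ensembl release and strand setting are not given in the sources used here. Symbols were matched for 29629 of 37908 identifiers.

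Each comparison was fitted on its own libraries with DESeq2 1.42.0 (R 4.3.3, Wald test, Benjamini-Hochberg adjustment over all genes tested). Genes were left out when more than 3 libraries had under 10 counts. Differences between responses were interaction terms on genes with at least 10 counts in 3 libraries. The study describes the libraries as independent experiments, and the labels give replicate numbers only. Deviations of same-numbered libraries from group means were compared in 12 comparisons, and the 7 with 3 pairs, all correlated above 0.1, were treated as paired in an alternative fit with a replicate block. Other alternatives were edgeR 4.0.16, TMM scaling, no filter, one model over all groups and leaving out each library; leaving out both libraries that went against their label was added after seeing the data. Main fits were also run on counts simulated from their own fitted means and dispersions, with changes added to chosen genes. The simulated libraries were independent, so these runs do not speak to shared replicate effects or to libraries that went against their label. Their outcome is not given here. Besides the 6 genes, up to 2 called genes of largest increase and 2 of largest decrease per list were named, with a mean of at least 50 normalised counts; likeness used log2(normalised count + 1) and genes with a mean of at least 100. The genes and lists were chosen with earlier results of these data known, and groups came from the labels. One of the genes most like ZEB1 is not reported here.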

Additional observations from a re-analysis of the deposited data

Results flagged for a closer look

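The difference between siβ-catenin and control siRNA cells in the GSK3i response was called for 7.63% of all genes in BRCA2-proficient cells and 0.486% in BRCA2-deficient cells. It was called for 10 genes of the lists and for none of the 6 genes described. In BRCA2-deficient cells this was TCF3 (-0.70 on the log2 scale), which measured 3568, 3649 and 3498 normalised counts untreated, 6790, 6923 and 6322 with GSK3i, 4372, 3733 and 4459 with siβ-catenin and 4788, 5093 and 4647 with both. In BRCA2-proficient cells the difference was called for 4 of 15 epithelial and 1 of 15 mesenchymal genes tested. It was also called for 3 of 8 filament genes and 1 of 3 antisense and host transcripts, and for 0 of 10 other EMT factors. There the epithelial genes CLDN3 (2.11), PKP3 (1.42), JUP (2.10) and LLGL2 (1.58), the collagen COL1A1 (1.70) and SNAI3-AS1 (1.86) had positive differences, and the filament genes INA (-0.79), NEFM (-1.29) and NEFH (-0.90) negative ones. Those 9 values rest on the 2 libraries that went against their GSK3i label. Without both, PKP3 (1.70), COL1A1 (1.54) and NEFH (-0.87) were still called, and CLDN3 (1.43), JUP (0.83), LLGL2 (1.27), INA (-0.48), NEFM (-0.71) and SNAI3-AS1 (0.92) were not; that fit leaves 1 library with siβ-catenin alone. With all libraries edgeR called none (0) of the 9, nor did DESeq2 without untreated replicate 3 (adjusted p from 0.094 to 0.206). For TCF3 edgeR gave an adjusted p of 0.154. No group had 4 or more libraries, so single outlying libraries were not tested for.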

How the results depend on the processing

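Of 1158 values of the 6 genes under alternatives, 45 lost a call and 9 gained one. A call could be lost only under alternatives to the 9 called changes, which make up a small part of the 1158 values. The cause was not tested. The sign differed from the reported value in 82, with 0 of these among called values, and in 7 of the 82 the value also moved by at least 1 standard error. Below, differences A to D are those of the GSK3i response between siβ-catenin and control siRNA in BRCA2-proficient (A) and BRCA2-deficient cells (B), of the GSK3i response between backgrounds (C) and of the siβ-catenin response under GSK3i between backgrounds (D). edgeR called 4904 genes against 4372 for GSK3i in BRCA2-proficient cells, and fewer than DESeq2 elsewhere. Counts that differed by over 1.5 times were 183 and 267 for siβ-catenin under GSK3i (BRCA2-proficient, BRCA2-deficient), 0 for GSK3i after siβ-catenin in BRCA2-proficient cells, 1 and 0 for siβ-catenin alone, 326, 645 and 483 for BRCA2 status untreated, with GSK3i and with both, and 4, 11, 0 and 0 for A to D. No filter gave 0 for D. One model over all groups gave 1 for GSK3i after siβ-catenin and 274 for siβ-catenin alone (BRCA2-proficient), and 2149, 52, 1 and 0 for A to D.

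With the replicate block, 3 genes were called for GSK3i after siβ-catenin and 189 for siβ-catenin alone (BRCA2-proficient), 527 for siβ-catenin alone (BRCA2-deficient), 2020 for BRCA2 status with siβ-catenin, and 335, 94 and 4 for B, C and D. In comparisons with a group of 2 libraries the numbers were not shown to pair the samples; there the replicate block lost SNAI2 (adjusted p = 0.125), ZEB2 (0.0743) and TWIST1 (0.159) with GSK3i in BRCA2-proficient cells and ZEB1 (0.143) for BRCA2 status with siβ-catenin. In paired comparisons it gained VIM and ZEB1 as given above and took TWIST1 just under the size limit with GSK3i after siβ-catenin (BRCA2-deficient).

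Leaving out both libraries that went against their label, chosen after seeing the data, gave 1099 genes for GSK3i after siβ-catenin (BRCA2-proficient), with SNAI1 at 0.43 and TWIST1 at -0.46, and 592 for A, with ZEB2 at -0.25 and GSK3A at 0.08. Leaving out 1 library at a time, the genes called ranged from 2825 to 4266 for GSK3i (BRCA2-proficient), 292 to 855 and 366 to 1037 for siβ-catenin under GSK3i (BRCA2-proficient, BRCA2-deficient), 3 to 28 and 2217 to 3575 for GSK3i after siβ-catenin, 21 to 2008 and 84 to 536 for siβ-catenin alone, 183 to 2147, 608 to 1302, 2879 to 4912 and 748 to 1603 for BRCA2 status in untreated, GSK3i, siβ-catenin and doubly treated cells, and 102 to 2251, 47 to 110, 3 to 14 and 0 to 11 for A to D. Changes in log2 that turned in sign and moved by at least 1 standard error, in uncalled values, ranged from -0.21 to 0.22 for BRCA2 with GSK3i and -0.17 to 0.38 for TWIST1 with siβ-catenin under GSK3i (both BRCA2-proficient), -0.06 to 0.44 for GSK3A with siβ-catenin (BRCA2-proficient), -0.18 to 0.41 for ZEB1 and -0.59 to 0.08 for BRCA2 with siβ-catenin (BRCA2-deficient), and -0.36 to 0.29 for SNAI1 and -0.15 to 0.40 for TWIST1 for BRCA2 status with siβ-catenin.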
